A study of Homo sapiens with 10 samples.

Results

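The genes described here encode subunits of the oxidative phosphorylation complexes of mitochondria. They were followed in U937 cells, a human monocytic tumour line, after cross-linking of an Fc gamma receptor. Members were taken by gene symbol alone: every probe set whose only symbol began with NDUF, UQCR, ATP5, COX4, COX5, COX6, COX7 or COX8, or was SDHA, SDHB, SDHC, SDHD or CYC1. That rule found 62 genes of the 7714 genes with a probe set of 1 symbol, each through 1 probe set. They comprised 26 genes of complex I, 2 of complex II (SDHC and SDHD), 7 of complex III, 12 of complex IV, 14 of ATP synthase including its inhibitor ATP5IF1, and COX7A2L, which joins complexes III and IV. A further 5 probe sets with a fitting symbol carried a second gene's symbol too and were left out. The study had 10 arrays in 5 groups of 2, all of U937 cells differentiated with interferon gamma, the control cells included. Control cells had no cross-linking and no time in the labels. In the other groups either CD32 (the low-affinity receptor for IgG) or CD64 (the receptor of high affinity) was cross-linked, each for 2 h and for 6 h. Nothing in the labels tied the 2 arrays of a group to different cultures, and the spread that the p-values rest on is that between arrays and may be technical. For 1 CD32 2 h array the source name read otherwise than its title and description, which were followed.

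Oxidative phosphorylation moves electrons from NADH (through complex I) and from succinate (through complex II) to ubiquinone, then through complex III and cytochrome c to complex IV, which reduces oxygen to water. Complexes I, III and IV pump protons across the inner mitochondrial membrane, and ATP synthase uses the return flow to make ATP. All members are nuclear genes, whose products are imported and assembled with the core subunits that mitochondrial DNA encodes. In monocytes and macrophages the balance between this pathway and glycolysis shifts with activation, and complexes I and III are also known sources of superoxide.

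The promoters of many of these genes are known to hold sites for nuclear respiratory factor 1 (NRF1), for ETS family proteins such as GABP, and for YY1. Windows from 250 bases before to 50 after the start site (RefSeq, GRCh38.p14) were at hand for 53 of the 62 genes. The ETS letters CCGGAAG, searched on both strands like the others, stood in 16 of 53 genes (30.2%) against 12.2% of all 27305 genes with a window. The NRF1 letters GCGCATGCG stood in 10 of 53 (18.9%) against 2.34%, and the YY1 letters AAGATGGCG in 7 of 53 (13.2%) against 2.14%. The NRF1 letters stood on both strands 1 base apart, as the full palindrome of the site has them, in 4 of 53 (7.55%) against 1.52%. That longer form was searched first, and the shorter one was chosen after its counts were seen. The YY1 letters begin with the AAG that ends the ETS letters, and so could overlap them, but in the members no ETS match overlapped a YY1 match. Of 13 genes that read higher after CD64 than after CD32 at both times, 7 held the ETS letters. The stretches printed are those of UQCRQ, SDHD, COX5B and UQCR11, all among these 7, and so do not stand for all 13. That of ATP5F1C, which had the largest change against control, is printed too. Capitals mark the ETS letters (CCGGAAG, or CTTCCGG for the other strand) and the NRF1 letters (GCGCATGCG, or CGCATGCGC for the other strand, which overlap where both are present), and each stretch runs 5′ to 3′ on the strand of the gene.
UQCRQ, chr5:132866492-132866641, plus strand: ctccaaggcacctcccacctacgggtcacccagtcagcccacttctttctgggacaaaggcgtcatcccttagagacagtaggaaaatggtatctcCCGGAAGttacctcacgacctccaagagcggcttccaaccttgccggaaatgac
SDHD, chr11:112086723-112086872, plus strand: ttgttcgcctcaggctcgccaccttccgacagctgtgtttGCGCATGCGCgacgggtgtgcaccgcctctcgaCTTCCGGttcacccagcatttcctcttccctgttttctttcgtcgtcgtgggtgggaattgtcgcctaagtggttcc
COX5B, chr2:97645912-97646056, plus strand: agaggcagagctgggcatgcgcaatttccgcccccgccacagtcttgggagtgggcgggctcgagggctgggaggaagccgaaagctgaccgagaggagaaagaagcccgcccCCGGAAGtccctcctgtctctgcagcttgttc
UQCR11, chr19:1605463-1605612, minus strand: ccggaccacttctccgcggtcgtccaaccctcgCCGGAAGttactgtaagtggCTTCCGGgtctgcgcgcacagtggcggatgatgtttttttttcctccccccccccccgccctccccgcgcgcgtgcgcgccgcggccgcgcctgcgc
ATP5F1C, chr10:7788027-7788176, plus strand: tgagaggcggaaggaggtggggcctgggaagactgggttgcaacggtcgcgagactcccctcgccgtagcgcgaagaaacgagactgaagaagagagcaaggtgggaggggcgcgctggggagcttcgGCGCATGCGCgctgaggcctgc
The stretches end 1 base before the start site, apart from that of COX5B, which ends 6 bases before it. The ETS letters of UQCRQ began 54 bases before the start site, and those of COX5B 37 bases before it, with a further match 5 bases before it that the stretch leaves out. SDHD held the NRF1 letters 110 bases and the ETS letters 77 bases before the start, and UQCR11 held the ETS letters in both orientations, 117 and 97 bases before it. ATP5F1C held the NRF1 letters 22 bases before the start and no ETS letters in its window. A match of letters describes the sequence and shows no binding.

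The member probe sets were bright: the median of their mean signal was 2397 against 168 over all 7708 probe sets tested, and 53 of the 61 tested lay above 611, the 75th percentile of all. The calls of each comparison are therefore also given for 1838 other probe sets of like brightness, with a mean signal between 547 and 6035, the 10th and 90th percentile of the members. COX7A1, the heart and muscle isoform of a complex IV subunit, read 3.1 to 13.1 on all 10 arrays, below the floor of 37.5 set for low values, and was not tested. Of the monocyte markers CSF1R, ITGAM, FCGR2A, SPI1 and TYROBP were above the floor on all arrays, and the summed signal of the 6 markers of that list on the array was 3033 to 3425 in control, 3193 to 3345 and 4039 to 4267 after CD32 at 2 h and 6 h, and 2621 to 2817 and 3597 to 3727 after CD64. Of markers of other cell types NKG7, CD2, CD79A, HBB and MB were above the floor on all arrays, and KRT19 was below it on all. The 4 natural killer markers summed to 2265 to 2303 in control and 1507 to 1578 after CD64 at 2 h, the lowest of the groups, and the 3 erythroid and platelet markers to 313 to 321 and 542 to 602, the highest. The part of these sums in the members' changes was not tested. The array median lay between 101 and 153. The 18 control probe sets for added bacterial and phage RNA had a mean log2 signal of 10.63 in control, 11.25 and 12.36 after CD32 at 2 h and 6 h, and 10.87 and 9.32 after CD64 at 2 h and 6 h. For actin, probe sets at the 3′ end read 1.3, 1.56, 1.99, 1.81 and 1.12 times those at the 5′ end in these 5 groups, and the highest signal on an array averaged 28012, 27526, 37486, 30354 and 15202. These measures went with the groups and cannot be told apart from them. In bulk RNA, a change in RNA per cell and a change in the mix of cells cannot be told apart either.

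After CD32 cross-linking the respiratory chain genes read mostly lower than in control, with a log2 change below 0 for 49 of 61 at 2 h and 44 at 6 h. At 2 h 15 of the 61 fell and 2 rose, with a median log2 change of -0.24, where a call is an adjusted p under 0.05 in limma. The genes that fell included 7 of complex I, 3 of complex IV, 4 of ATP synthase and UQCRQ of complex III, while NDUFB2 and COX7A2L rose. Over all probe sets tested 6.6% were lower and 8.86% higher, and the members' shares were 24.6% and 3.28%. Of the equally bright probe sets 15.2% were lower and 22.4% higher, with a median of 0.03. Set against the median of the 200 probe sets closest in signal, 50 members lay below and 11 above. The 2 h count of 17 went down to 8 without either CD32 2 h array.

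At 6 h after CD32 22 members fell and 2 (NDUFAB1 and NDUFB2) rose, and the median change was -0.29. Complex I had 12 falls among 26 genes, complex III 4 among 7, complex IV 3 among 11 and ATP synthase 3 among 14. The background was 10.3% lower and 9.63% higher over all probe sets, and 22.1% and 22.8% over the equally bright ones. Among the members 36.1% fell and 3.28% rose, and 46 lay below the median of their neighbours in signal. The complex III median was -0.59 and that of ATP synthase -0.04. Without CD32 6 h replicate 1 the count of 24 went down to 13, and without control replicate 2 to 15.

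After CD64 cross-linking at 2 h the balance was the other way: 9 members rose and 4 fell, with a median of 0.19. The genes that rose were NDUFA6, NDUFAB1, NDUFB5, SDHD, COX6C, ATP5MG, ATP5MJ, ATP5PF and COX7A2L, and those that fell were NDUFA9, UQCRC1, ATP5F1C and ATP5F1D. Over all probe sets 7.64% were higher and 8.24% lower, and the median of all was -0.13 as deposited and 0.00 after quantile normalization. Of the equally bright probe sets 22% were higher and 17.3% lower, so the members' 14.8% and 6.56% lay below both shares. Quantile normalization gave 7 higher and 5 lower and cyclic loess 6 and 5, with COX6C and NDUFB5 no longer called by either. The 13 calls became 7 when CD64 2 h replicate 1 was left out, and 8 when control replicate 1 was.

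At 6 h after CD64 5 members rose (NDUFA6, NDUFB2, NDUFS6, ATP5MG and COX7A2L) and 10 fell, and the median was -0.02. The background was 10.7% higher and 9.94% lower over all probe sets and 25.8% and 20.6% over the equally bright ones. The members' shares were 8.2% and 16.4%. The direction of the split and of the median depended on the scaling: quantile normalization gave 9 higher and 7 lower with a median of 0.05, and cyclic loess 9 and 6 with 0.07. Under both, ATP5F1A, ATP5F1B, NDUFB4 and UQCRC2 were no longer among the genes that fell, and those 4 probe sets are among the brighter members. All 4 comparisons with control share the same 2 control arrays.

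**Figure D1:**
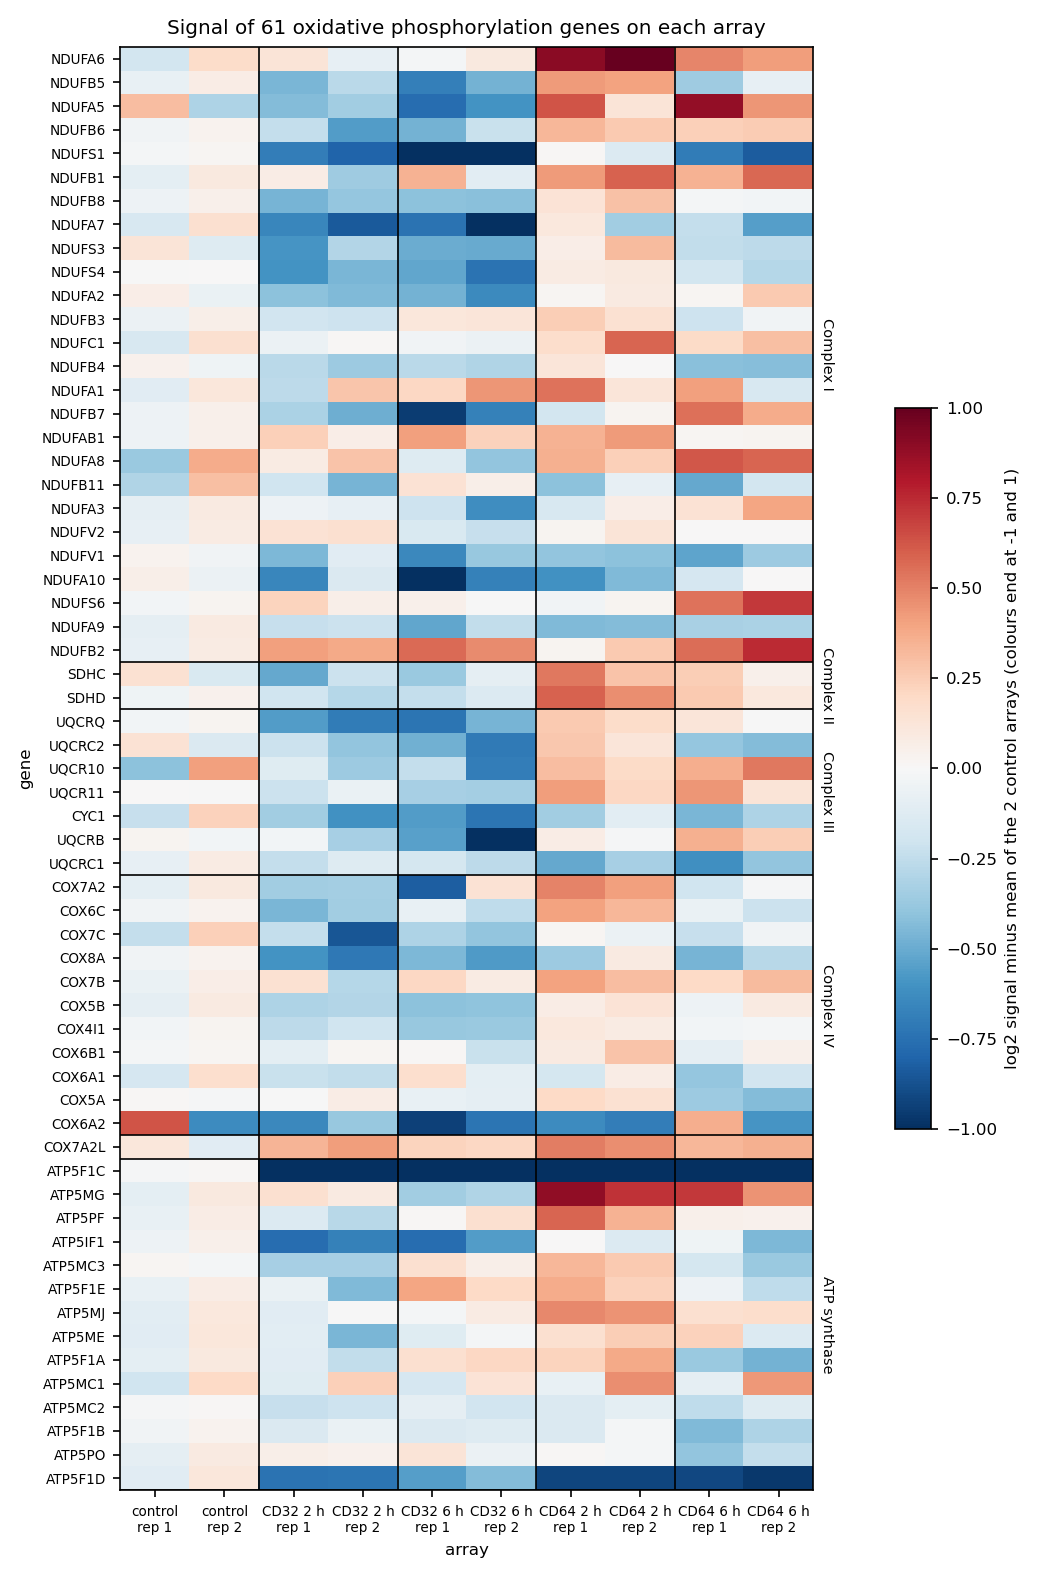
Log2 signal of the 61 members tested on each of the 10 arrays, minus the mean of the 2 control arrays of the gene (colour, red higher and blue lower, ends of the scale at -1 and 1), with genes in rows grouped by complex and arrays in columns grouped by treatment. The CD32 columns are mostly blue and the CD64 2 h columns mostly red, with member medians of -0.23 and -0.29 on the CD32 2 h arrays, -0.24 and -0.26 on the CD32 6 h arrays, 0.11 and 0.13 on the CD64 2 h arrays and -0.05 and -0.03 on the CD64 6 h arrays.

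The heat map shows the same split on single arrays. The median of the members on an array, relative to the control mean, was below -0.2 on all 4 CD32 arrays and above 0.1 on both CD64 2 h arrays, with the control arrays at -0.05 and 0.05. The median of the equally bright probe sets stayed between -0.04 and 0.06 on the 10 arrays.

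**Figure D2:**
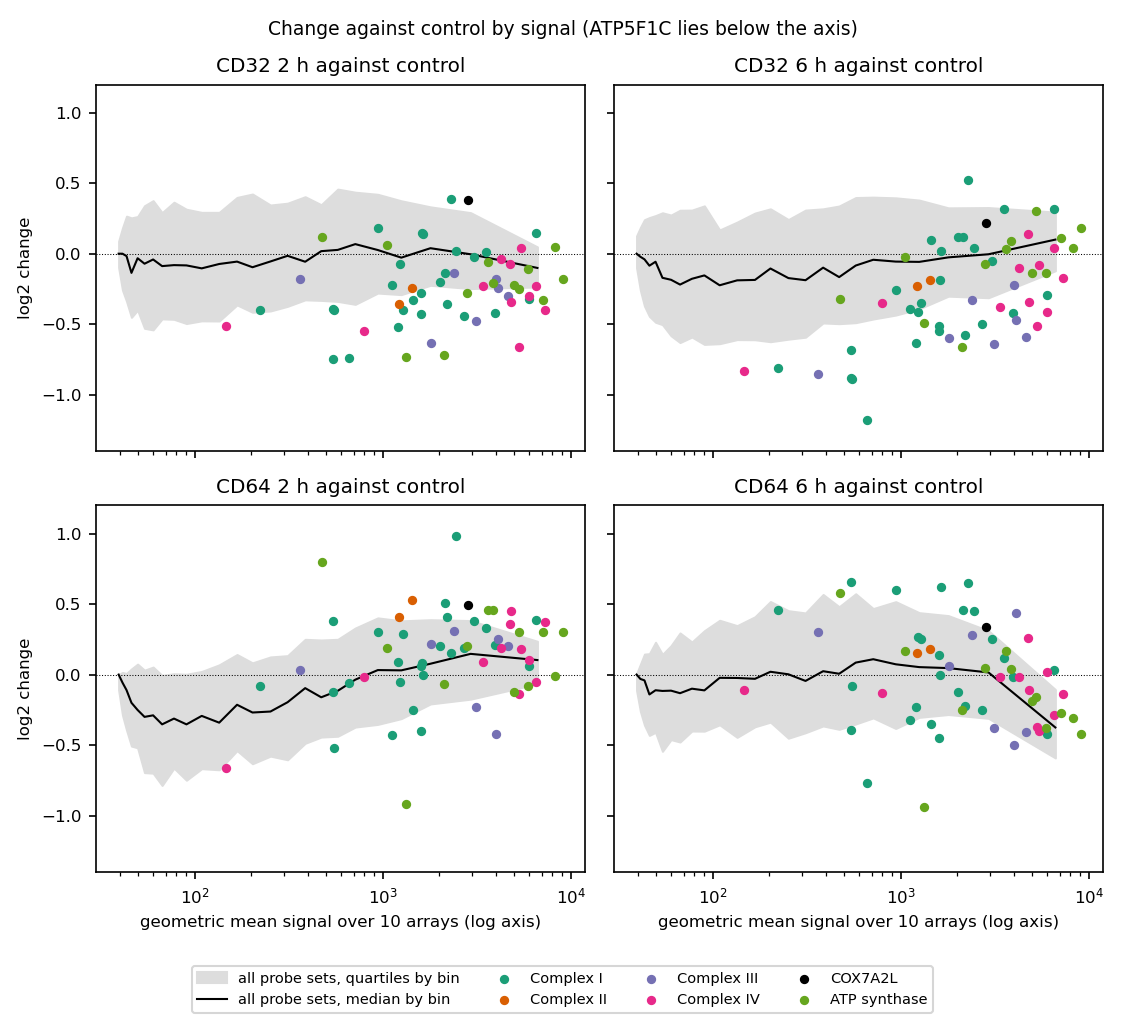
Log2 change against control (y) by mean signal over the 10 arrays (x, log axis), 1 panel per cross-linked group; points are members coloured by complex, the line is the median and the grey band the quartiles of all 7708 probe sets in 25 bins of signal, and ATP5F1C lies below the axis in all panels. In both CD32 panels most members lie below the line (50 of 61 at 2 h and 46 of 61 at 6 h below the median of their nearest probe sets), in the CD64 2 h panel 39 of 61 lie above it, and in the CD64 6 h panel the line itself bends down at high signal.

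The plot by signal shows where brightness matters. Across the 61 members the change went up with mean log2 signal after CD32 (Pearson r = 0.44 at 2 h and 0.66 at 6 h). The r was 0.45 after CD64 at 2 h and 0.07 at 6 h, a description over genes that share the same arrays. These r include ATP5F1C, off the axis, whose mean signal is low partly because it fell on every cross-linked array. No r was computed without it. The 30 brighter and 31 dimmer members had medians of -0.23 and -0.36 (CD32 at 2 h) and -0.09 and -0.41 (CD32 at 6 h). After CD64 these were 0.21 and 0.06 at 2 h and -0.12 and 0.06 at 6 h. On the CD64 6 h arrays, the highest signal averaged 15202, below that of every other group, and the brightest probe sets of all kinds read lower there. Whether this compression at high signal accounts for the lower readings of bright members at 6 h was not tested.

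The clearest difference was between the receptors at 2 h. Of the 61 members 30 read higher after CD64 than after CD32 and 0 lower, with a median difference of 0.42. At an unadjusted p under 0.05 the limma counts were 35 higher and 1 lower, a threshold at which no background share was computed. At the adjusted threshold 6.86% of all probe sets tested were higher and 9.43% lower. Of the equally bright ones 20.1% were higher and 21.8% lower, with a median of -0.02. Every complex took part with the deposited scaling. Higher were 12 of 26 genes of complex I, both of complex II and 3 of 7 of complex III. So were 5 of 11 of complex IV and 8 of 14 of ATP synthase. Under quantile and cyclic loess normalization complex I kept 12 higher and complex II 2. Complex III had 1 higher and 1 lower under each. Complex IV then had 2 and 3 higher, and ATP synthase 5 and 6. The arrays of the 2 groups did not overlap for any of the 30. With 2 arrays a group this follows closely from the call and adds no support. The share without overlap over all probe sets was not computed. Across the members the difference did not go with brightness (r = 0.03), and 51 of 61 lay above the median of their neighbours in signal. Over all probe sets in 25 bins of signal it varied with brightness. The bin median was -0.324 at a signal of 67.1 and 0.18 at 6652. Quantile normalization gave 22 higher and 1 lower (UQCRC1) and cyclic loess 24 and 1 (UQCRC1). Without CD32 2 h replicate 2 the count was 15, and without CD64 2 h replicate 1 it was 18, all of them higher.

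At 6 h 20 members read higher after CD64 than after CD32 and 6 lower, with a median difference of 0.23. Over all probe sets 9.81% were higher and 7.8% lower, and of the equally bright ones 21.7% and 15.3%. Complex I had 12 higher and 0 lower and complex III 4 higher and 0 lower. In ATP synthase ATP5MG was higher and ATP5F1A, ATP5F1D, ATP5F1E, ATP5MC3 and ATP5PO lower. The lower readings of ATP synthase depended on the scaling: quantile normalization left 19 higher and 1 lower (ATP5F1D) and cyclic loess 23 and 1 (ATP5F1D), and the ATP synthase median changed sign from -0.05 to 0.14 and 0.10. Across the 61 members the difference went down with signal (r = -0.65). The count of 26 was 10 without CD64 6 h replicate 2, 13 without CD64 6 h replicate 1 and 14 without CD32 6 h replicate 1.

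The comparisons of the receptors at 2 h and at 6 h share no array. The genes higher at both were ATP5MG, COX4I1, COX5B, NDUFA2, NDUFA5, NDUFA6, NDUFB6, NDUFB8, NDUFS1, NDUFS4, SDHD, UQCR11 and UQCRQ. These 13 are 43.3% of the 30 higher at 2 h and 65% of the 20 higher at 6 h. Among equally bright probe sets 146 were higher at both times, 39.5% of those higher at 2 h and 36.7% of those higher at 6 h, and over all probe sets 197 were, 37.2% and 26.1%. Of the 13 genes 8 were higher at both times under quantile normalization and 8 under cyclic loess, and COX4I1, NDUFS1, NDUFS4 and UQCR11 under neither. The ETS letters stood in the windows of 7 of these 13 genes (ATP5MG, COX4I1, COX5B, NDUFS1, SDHD, UQCR11 and UQCRQ) and of 9 of the other 40 members with a window. The NRF1 letters stood in 2 of the 13 and 8 of the 40, and the YY1 letters in 3 and 4. Of the 7 with ETS letters, ATP5MG and UQCRQ were higher at both times under both other scalings.

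**Figure D3:**
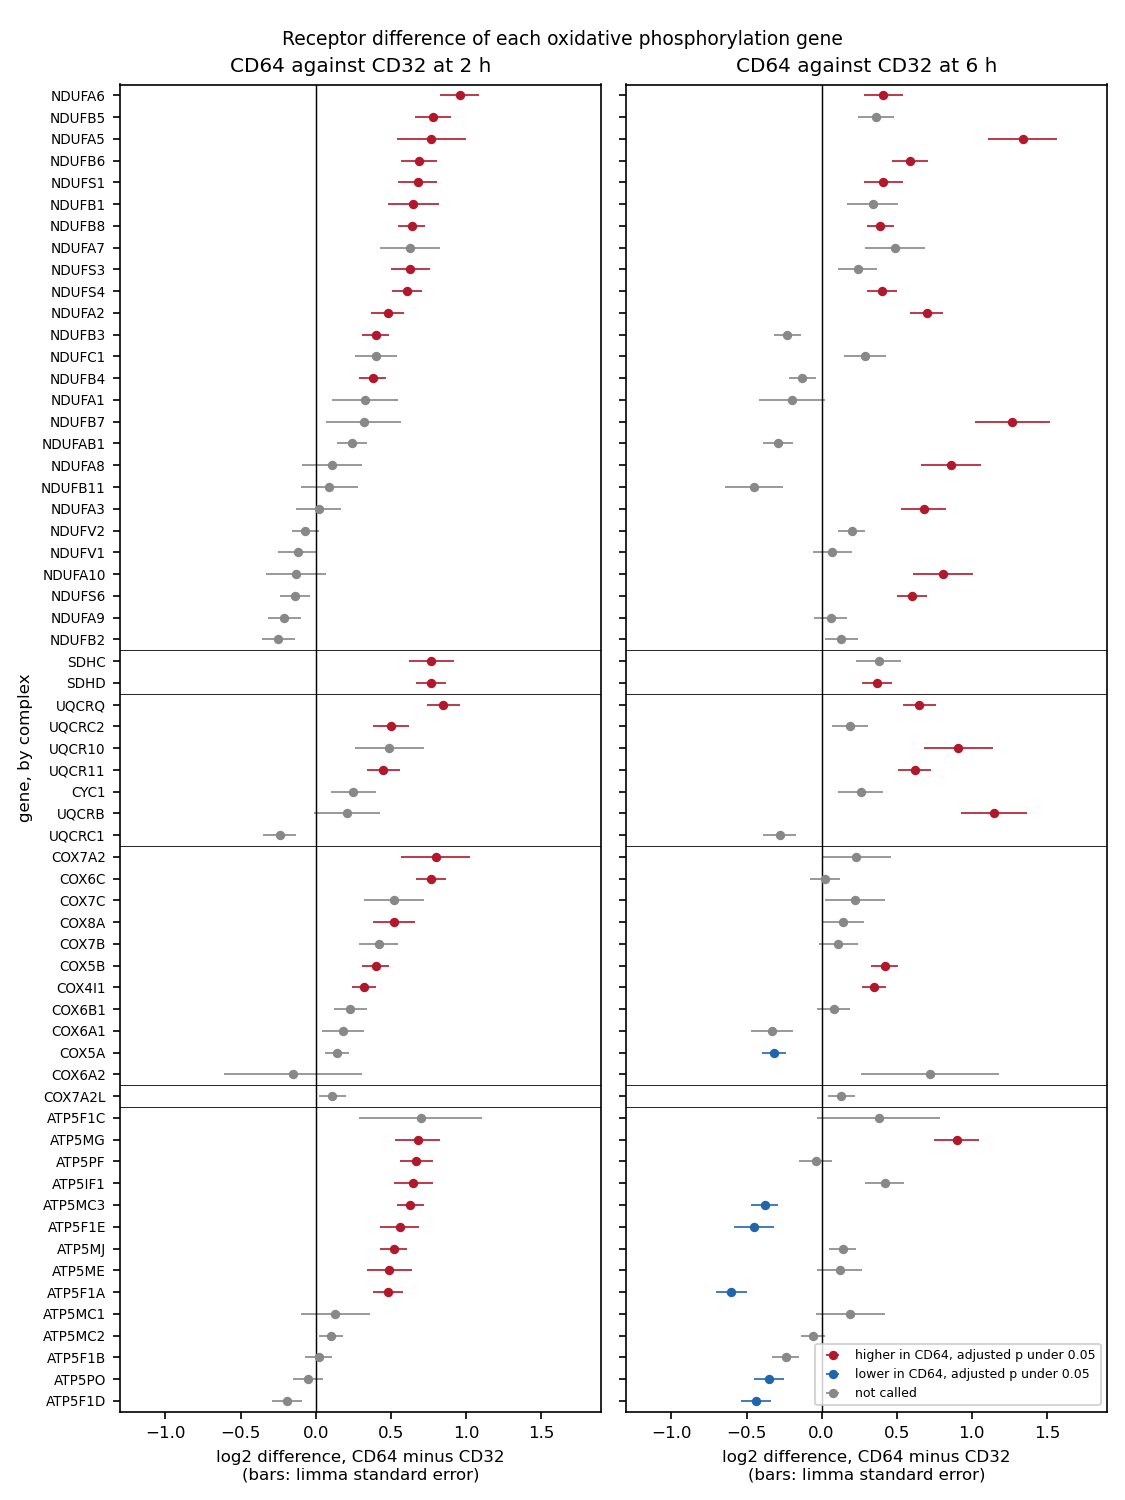
Log2 difference of CD64 minus CD32 (x) for each of the 61 members (y, grouped by complex) at 2 h (left) and 6 h (right); bars are the standard error from limma over 2 arrays a group, red marks higher and blue lower at an adjusted p under 0.05. At 2 h 30 genes are red and 0 blue, and at 6 h 20 are red and 6 blue, 5 of the blue ones in ATP synthase (of which ATP5F1D alone kept its call under quantile and cyclic loess normalization).

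Between 2 h and 6 h after CD32 few members moved. Only ATP5F1E and ATP5MC3 rose, 0 fell, and the median was -0.02, against 2.04% higher and 2.43% lower over all probe sets and 5.17% and 7.29% over the equally bright ones. At an unadjusted p under 0.05 limma gave 8 higher and 8 lower, with no background share computed at that threshold. Neither ATP5F1E nor ATP5MC3 was called under quantile or cyclic loess normalization. After CD64 15 members fell from 2 h to 6 h and 2 (NDUFB2 and NDUFS6) rose, with a median of -0.16, against 6.25% lower and 7.56% higher over all probe sets and 15.3% each way over the equally bright ones. Of the 15 that fell 11 were among the 30 brighter members and 4 among the 31 dimmer ones. Quantile normalization left 4 lower and 3 higher, and cyclic loess 4 and 2, with NDUFB5, NDUFS1 and SDHD lower under both. The count of 17 was 6 without CD64 6 h replicate 2, 9 without CD64 6 h replicate 1 and 11 without either CD64 2 h array.

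The interaction of receptor and time asks whether the difference between the receptors at 6 h was another than at 2 h. It was called lower (a smaller CD64 minus CD32 difference at 6 h) for 9 members and higher for 1, NDUFS6, with a median of -0.24, against 4.75% lower and 6.72% higher over all probe sets. Of the equally bright ones 10.3% were lower and 13.5% higher, beside 14.8% and 1.64% of the members. The all-probe-set median of this contrast was 0.16 as deposited and 0.00 after quantile normalization. Quantile normalization left 1 lower (NDUFB3) and 2 higher, and cyclic loess 2 lower (ATP5F1A and NDUFB3) and 2 higher. Without CD32 2 h replicate 2 the count of 10 was 6.

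Complex I takes electrons from NADH. Its NDUFS1 subunit carries iron-sulfur clusters in the peripheral arm. NDUFS1 read 954 and 982 in control, 600.4 and 557 after CD32 at 2 h, 398 and 460.1 after CD32 at 6 h, 976 and 878 after CD64 at 2 h, and 596 and 543 after CD64 at 6 h. All CD32 arrays and both CD64 6 h arrays lay below the control arrays, and the 2 CD64 2 h arrays overlapped with the control arrays. The log2 change was -0.74 ± 0.13 at 2 h and -1.18 ± 0.13 at 6 h after CD32 (adjusted p = 9.33e-05), and -0.77 ± 0.13 at 6 h after CD64. The receptors differed by 0.68 ± 0.13 at 2 h and 0.41 ± 0.13 at 6 h, the latter no longer called under quantile (0.26) or cyclic loess (0.24) normalization. NDUFS6, a zinc-binding subunit of the same arm, went its own way. Its signal was 1448 and 1503 in control, 1726 and 1534 after CD32 at 2 h, 1526 and 1468 after CD32 at 6 h, 1442 and 1504 after CD64 at 2 h, and 2146 and 2412 after CD64 at 6 h. Only the CD64 6 h arrays were high, and they overlapped with no other group. The change there was 0.62 ± 0.10 against control (adjusted p = 0.000967) and 0.63 ± 0.10 against CD64 at 2 h, and the interaction was 0.75 ± 0.14 (adjusted p = 0.0062).

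NDUFA6 is an accessory subunit of the LYR protein family. It read 1759 and 2269 in control, 2185 and 1885 after CD32 at 2 h, 1974 and 2137 after CD32 at 6 h, 3740.0 and 4169 after CD64 at 2 h, and 2805 and 2664 after CD64 at 6 h. The CD64 2 h arrays were the highest, the CD64 6 h arrays came next, and the CD32 arrays lay within the range of the control arrays. NDUFA6 rose by 0.98 ± 0.13 after CD64 at 2 h, a 1.98-fold change (adjusted p = 0.000554), and by 0.45 ± 0.13 at 6 h. NDUFA5, an accessory subunit of the peripheral arm, read 675 and 441 in control, 403 and 429 after CD32 at 2 h, 322 and 361 after CD32 at 6 h, 845 and 595 after CD64 at 2 h, and 1006 and 742 after CD64 at 6 h. Its 2 control arrays lay far apart and no comparison with control was called, while the receptors differed by 0.77 ± 0.23 at 2 h and 1.34 ± 0.23 at 6 h (2.53-fold, adjusted p = 0.00285). NDUFB7, a membrane-arm subunit on the intermembrane side, read 242 and 259 in control, 201 and 178 after CD32 at 2 h, 129.9 and 157 after CD32 at 6 h, 220.4 and 255 after CD64 at 2 h, and 366 and 324 after CD64 at 6 h. It fell after CD32 at 6 h by 0.81 ± 0.25 (not called under quantile or cyclic loess normalization), and the receptors differed by 1.27 ± 0.25 at 6 h, 2.42-fold.

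The membrane-arm subunits NDUFB5 and NDUFB8 are accessory proteins of the proton-pumping part. NDUFB5 read 2316 and 2557 in control, 1770.3 and 2024 after CD32 at 2 h, 1516 and 1754 after CD32 at 6 h, 3266 and 3213 after CD64 at 2 h, and 1904 and 2303 after CD64 at 6 h, and the CD32 arrays lay below and the CD64 2 h arrays above the control arrays. The change was -0.58 ± 0.12 after CD32 at 6 h and 0.41 ± 0.12 after CD64 at 2 h, and the receptors differed at 2 h by 0.78 ± 0.12 (adjusted p = 0.00152). By 6 h the CD64 signal had fallen by 0.63 ± 0.12 from 2 h. NDUFB8 read 4173 and 4458 in control, 3123 and 3306 after CD32 at 2 h, 3241 and 3223 after CD32 at 6 h, 4731 and 5274 after CD64 at 2 h, and 4265 and 4229 after CD64 at 6 h. All 4 CD32 arrays were lower than any other array, and the change was -0.42 ± 0.09 at 2 h and -0.42 ± 0.09 at 6 h. The receptors differed by 0.64 ± 0.09 at 2 h and 0.39 ± 0.09 at 6 h. NDUFB2, another accessory subunit of this arm, read 1711 and 1915 in control, 2404 and 2349 after CD32 at 2 h, 2685 and 2514 after CD32 at 6 h, 1847 and 2172 after CD64 at 2 h, and 2667 and 3032 after CD64 at 6 h. Its rise was 0.39 ± 0.11 and 0.52 ± 0.11 after CD32 and 0.65 ± 0.11 after CD64 at 6 h (adjusted p = 0.00145), while the CD64 2 h arrays did not differ beyond the threshold (0.15 ± 0.11).

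NDUFA7, a further accessory subunit of complex I, read 660.3 and 822 in control, 468 and 412 after CD32 at 2 h, 443 and 359.8 after CD32 at 6 h, 793 and 580.2 after CD64 at 2 h, and 624 and 503 after CD64 at 6 h. The 4 CD32 arrays lay below all others, with a change of -0.75 ± 0.20 at 2 h and -0.88 ± 0.20 at 6 h. NDUFA10, a membrane-arm subunit related to nucleoside kinases, read 743 and 685 in control, 455 and 646 after CD32 at 2 h, 332 and 446 after CD32 at 6 h, 469.8 and 525 after CD64 at 2 h, and 634 and 716 after CD64 at 6 h. It fell by 0.89 ± 0.20 after CD32 at 6 h, and the receptors then differed by 0.81 ± 0.20. NDUFA9, which lies near the ubiquinone site, read 1275 and 1448 in control, 1158 and 1169.9 after CD32 at 2 h, 946 and 1144 after CD32 at 6 h, 1003 and 1008 after CD64 at 2 h, and 1083 and 1093 after CD64 at 6 h. Both control arrays were above all others, and the falls called were -0.39 ± 0.11 after CD32 at 6 h and -0.43 ± 0.11 after CD64 at 2 h. The first was not called under cyclic loess normalization (-0.32). Under both other scalings NDUFA9 was also called lower after CD64 at 6 h. NDUFAB1, the mitochondrial acyl carrier protein, read 5564 and 5981 in control, 6815 and 6038 after CD32 at 2 h, 7658 and 6751 after CD32 at 6 h, 7340.0 and 7769.6 after CD64 at 2 h, and 5856 and 5890.5 after CD64 at 6 h. It rose by 0.32 ± 0.10 after CD32 at 6 h (not called under either other scaling) and by 0.39 ± 0.10 after CD64 at 2 h (not called under cyclic loess). NDUFS3, NDUFS4 and NDUFA2, of the peripheral arm, each fell at both times after CD32, by 0.44 ± 0.13 and 0.50 ± 0.13, 0.52 ± 0.10 and 0.63 ± 0.10, and 0.43 ± 0.11 and 0.55 ± 0.11. NDUFA1, NDUFB11, NDUFC1 and NDUFV2 were called in no comparison with the deposited scaling, and NDUFC1 was higher after CD64 than after CD32 at 6 h under cyclic loess normalization.

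Complex II links the citric acid cycle to the chain. SDHC and SDHD are its membrane anchors, which bind ubiquinone. SDHD read 1331 and 1415 in control, 1198 and 1124 after CD32 at 2 h, 1167 and 1248 after CD32 at 6 h, 2069 and 1892 after CD64 at 2 h, and 1642 and 1479.6 after CD64 at 6 h. The CD64 2 h arrays were the highest, the CD64 6 h arrays came next, and the CD32 arrays lay below the control arrays. SDHD rose by 0.53 ± 0.10 after CD64 at 2 h (adjusted p = 0.00478), and the receptors differed by 0.77 ± 0.10 at 2 h and 0.37 ± 0.10 at 6 h, the latter not called under cyclic loess (0.29). SDHC read 1366 and 1107 in control, 864 and 1061 after CD32 at 2 h, 951 and 1153 after CD32 at 6 h, 1775 and 1502 after CD64 at 2 h, and 1457 and 1275 after CD64 at 6 h. By group mean its order was CD64 2 h, CD64 6 h, control, CD32 6 h and CD32 2 h, as for SDHD, with a called difference between the receptors at 2 h of 0.77 ± 0.15 (adjusted p = 0.00637) and none against control. The probe sets of SDHA and SDHB, the catalytic subunits, were not among the members.

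Complex III passes electrons from ubiquinol to cytochrome c. UQCRQ, a small subunit bound to cytochrome b, read 2018 and 2088 in control, 1393 and 1265 after CD32 at 2 h, 1239 and 1485 after CD32 at 6 h, 2463 and 2333 after CD64 at 2 h, and 2231 and 2044 after CD64 at 6 h. The 4 CD32 arrays lay below every other array, and both CD64 2 h arrays above the control arrays. It fell by 0.63 ± 0.11 and 0.60 ± 0.11 after CD32, and the receptors differed by 0.85 ± 0.11 at 2 h (1.81-fold, adjusted p = 0.000554) and 0.65 ± 0.11 at 6 h. UQCR11, another small subunit, read 2361 and 2350.3 in control, 2033 and 2252 after CD32 at 2 h, 1875 and 1863 after CD32 at 6 h, 3145 and 2722 after CD64 at 2 h, and 3191 and 2578 after CD64 at 6 h. All CD64 arrays were above and all CD32 arrays below the control arrays, no comparison with control was called, and the receptors differed by 0.45 ± 0.11 at 2 h (not called under quantile or cyclic loess normalization) and 0.62 ± 0.11 at 6 h. UQCRB, which takes part in ubiquinone binding, read 409.5 and 396 in control, 394 and 319 after CD32 at 2 h, 276 and 179.8 after CD32 at 6 h, 423 and 399 after CD64 at 2 h, and 516 and 476 after CD64 at 6 h. The CD32 6 h arrays were the lowest and the CD64 6 h arrays the highest, with a fall after CD32 of 0.85 ± 0.22 and a receptor difference of 1.15 ± 0.22, 2.22-fold. UQCRC2, a core protein of the matrix side, read 5969 and 4899 in control, 4667 and 4111 after CD32 at 2 h, 3878 and 3308 after CD32 at 6 h, 6517 and 5882 after CD64 at 2 h, and 4145 and 4002 after CD64 at 6 h. It fell by 0.59 ± 0.12 after CD32 at 6 h and by 0.41 ± 0.12 after CD64 at 6 h, the latter not called under quantile or cyclic loess normalization, and the CD64 2 h and control arrays overlapped. Its partner UQCRC1 fell after CD64 by 0.42 ± 0.11 at 2 h and 0.50 ± 0.11 at 6 h. CYC1, the cytochrome c1 subunit, fell by 0.64 ± 0.15 after CD32 at 6 h.

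Complex IV reduces oxygen. COX4I1, the largest nuclear subunit, read 3592 and 3732 in control, 3048 and 3186 after CD32 at 2 h, 2808 and 2825 after CD32 at 6 h, 3936 and 3870.2 after CD64 at 2 h, and 3589 and 3609.8 after CD64 at 6 h. The CD32 arrays lay below all others, and the receptors differed by 0.32 ± 0.08 at 2 h (not called under quantile or cyclic loess normalization) and 0.35 ± 0.08 at 6 h. COX5B, a zinc-binding subunit, read 6166 and 6949.9 in control, 5296 and 5338 after CD32 at 2 h, 4936 and 4944 after CD32 at 6 h, 6873 and 7179 after CD64 at 2 h, and 6311 and 6963 after CD64 at 6 h. Again the 4 CD32 arrays were lowest and overlapped with no other group, with -0.30 ± 0.09 at 2 h (adjusted p = 0.0498, not called under quantile normalization) and -0.41 ± 0.09 at 6 h. COX6C, a small membrane subunit, read 7512 and 7898 in control, 5601 and 6057 after CD32 at 2 h, 7307 and 6452 after CD32 at 6 h, 10165 and 9696 after CD64 at 2 h, and 7362 and 6620.0 after CD64 at 6 h. It was the member called lower after CD32 (-0.40 ± 0.10) and higher after CD64 (0.37 ± 0.10) at 2 h, although neither call held under quantile normalization, and the receptors differed at 2 h by 0.77 ± 0.10 (adjusted p = 0.000632; 0.60 and 0.61 under the other scalings). COX7A2, the widely expressed isoform of the subunit whose muscle form is COX7A1, read 4706 and 5403 in control, 3956 and 3991 after CD32 at 2 h, 2852 and 5564 after CD32 at 6 h, 7122 and 6691 after CD64 at 2 h, and 4393 and 5003 after CD64 at 6 h. The 2 arrays of CD32 at 6 h lay far apart, and the called receptor difference at 2 h, 0.80 ± 0.23, was lost under both other scalings. COX5A read 5666 and 5592 in control, 5609.9 and 5937 after CD32 at 2 h, 5348 and 5285 after CD32 at 6 h, 6454 and 6265 after CD64 at 2 h, and 4368 and 4164 after CD64 at 6 h. The CD64 6 h arrays were the lowest, with -0.40 ± 0.08 against control, which was not called under cyclic loess normalization (-0.20). COX6A1, COX6A2, COX6B1, COX7B and COX7C were called in no comparison with the deposited scaling, and COX7B was higher after CD64 at 6 h than in control under both others.

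COX7A2L helps to join complexes III and IV into supercomplexes. It read 2515 and 2152 in control, 2945 and 3111 after CD32 at 2 h, 2716 and 2691 after CD32 at 6 h, 3315 and 3213 after CD64 at 2 h, and 2926 and 2976 after CD64 at 6 h. All 8 cross-linked arrays lay above both control arrays, with a rise of 0.38 ± 0.09 after CD32 at 2 h and of 0.49 ± 0.09 and 0.34 ± 0.09 after CD64 at 2 h and 6 h. After CD32 at 6 h the change of 0.22 ± 0.09 did not pass the threshold (adjusted p = 0.131).

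ATP synthase turns the proton flow into ATP through a rotor and a catalytic head. ATP5F1C, the gamma subunit at the core of the rotor, read 475 and 485 in control, 50.2 and 63.4 after CD32 at 2 h, 98.9 and 50.6 after CD32 at 6 h, 104 and 80.9 after CD64 at 2 h, and 87.8 and 95.9 after CD64 at 6 h. Both control arrays were far above all 8 cross-linked arrays, which lay between 50.2 and 103.6, not far above the floor of 37.5. The readings rest on 1 probe set, dim beside those of ATP5F1A and ATP5F1B, which averaged 9274 and 6559 in control. How fully this probe set reports the transcript was not tested. The log2 change lay between -3.09 ± 0.41 (8.51-fold lower, CD32 at 2 h) and -2.39 ± 0.41 (5.23-fold lower, CD64 at 6 h), with adjusted p from 0.000534 to 0.00276, and it was called in all 4 comparisons under both other scalings. ATP5F1D, the delta subunit, also fell in all 4, and read 1903 and 2215 in control, 1228 and 1240.1 after CD32 at 2 h, 1402 and 1517 after CD32 at 6 h, 1084 and 1087 after CD64 at 2 h, and 1091 and 1052 after CD64 at 6 h. The change was -0.73 ± 0.10 and -0.49 ± 0.10 after CD32 and -0.92 ± 0.10 and -0.94 ± 0.10 after CD64 (adjusted p = 8.09e-05 at 6 h). It was the member still lower after CD64 than after CD32 at 6 h under the other scalings (-0.44 ± 0.10 as deposited, -0.51 and -0.54).

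ATP5MG, the g subunit of the membrane part, rose after CD64. It read 376 and 432 in control, 449.7 and 429 after CD32 at 2 h, 318 and 327 after CD32 at 6 h, 745 and 664 after CD64 at 2 h, and 657 and 551 after CD64 at 6 h. All 4 CD64 arrays lay above every other array, with 0.80 ± 0.15 at 2 h and 0.58 ± 0.15 at 6 h against control. The receptors differed by 0.68 ± 0.15 at 2 h and 0.90 ± 0.15 at 6 h (1.87-fold, adjusted p = 0.00242). ATP5IF1, which inhibits ATP synthase when the proton gradient fails, fell at both times after CD32 by 0.72 ± 0.13 and 0.66 ± 0.13, and the values after CD64 were -0.07 ± 0.13 and -0.25 ± 0.13, neither of them called. The probe set of ATP5ME, whose name ends in _x_at, may also bind related transcripts, and ATP5MC1 and ATP5MC2, which encode the same mature c subunit as ATP5MC3, were called in no comparison.

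ATP5F1A (the alpha subunit of the head), ATP5F1E (epsilon) and ATP5MC3 (1 of the genes for the c ring) shared a pattern in which the receptor difference changed sign with time. ATP5F1A read 8665 and 9883 in control, 8544 and 7807 after CD32 at 2 h, 10327 and 10701 after CD32 at 6 h, 10789 and 12052 after CD64 at 2 h, and 7163 and 6676 after CD64 at 6 h. Its CD64 6 h arrays were the lowest of all. ATP5F1E read 4894 and 5401 in control, 4912 and 3787 after CD32 at 2 h, 6775 and 5899 after CD32 at 6 h, 6653 and 6035 after CD64 at 2 h, and 4954 and 4300.2 after CD64 at 6 h. The control, CD32 2 h and CD64 6 h arrays overlapped, and the CD32 6 h and CD64 2 h arrays lay above them. ATP5MC3 read 7428 and 7259 in control, 5844 and 5821 after CD32 at 2 h, 8223 and 7638 after CD32 at 6 h, 9246 and 8786 after CD64 at 2 h, and 6493 and 5672 after CD64 at 6 h. In each of them the CD64 arrays were above the CD32 arrays at 2 h and below them at 6 h, without overlap. The difference at 2 h and then at 6 h was 0.48 ± 0.10 and -0.60 ± 0.10 for ATP5F1A, 0.56 ± 0.13 and -0.45 ± 0.13 for ATP5F1E, and 0.63 ± 0.09 and -0.38 ± 0.09 for ATP5MC3. The interaction was -1.09 ± 0.15, -1.01 ± 0.19 and -1.01 ± 0.13, with adjusted p of 0.00112, 0.00695 and 0.0009. The median of the 200 probe sets closest in signal moved the same way, by -0.68, -0.30 and -0.43. After quantile normalization the 6 h differences were -0.08, -0.23 and 0.02, of which none was called, and the interactions -0.34, -0.65 and -0.47, also not called. From 2 h to 6 h the 3 genes read lower after CD64 and higher after CD32. The highest signal on an array averaged 15202 after CD64 at 6 h and 37486 after CD32 at 6 h, the lowest and highest of the groups. The part of this top signal in the sign change was not tested.

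**Figure D4:**
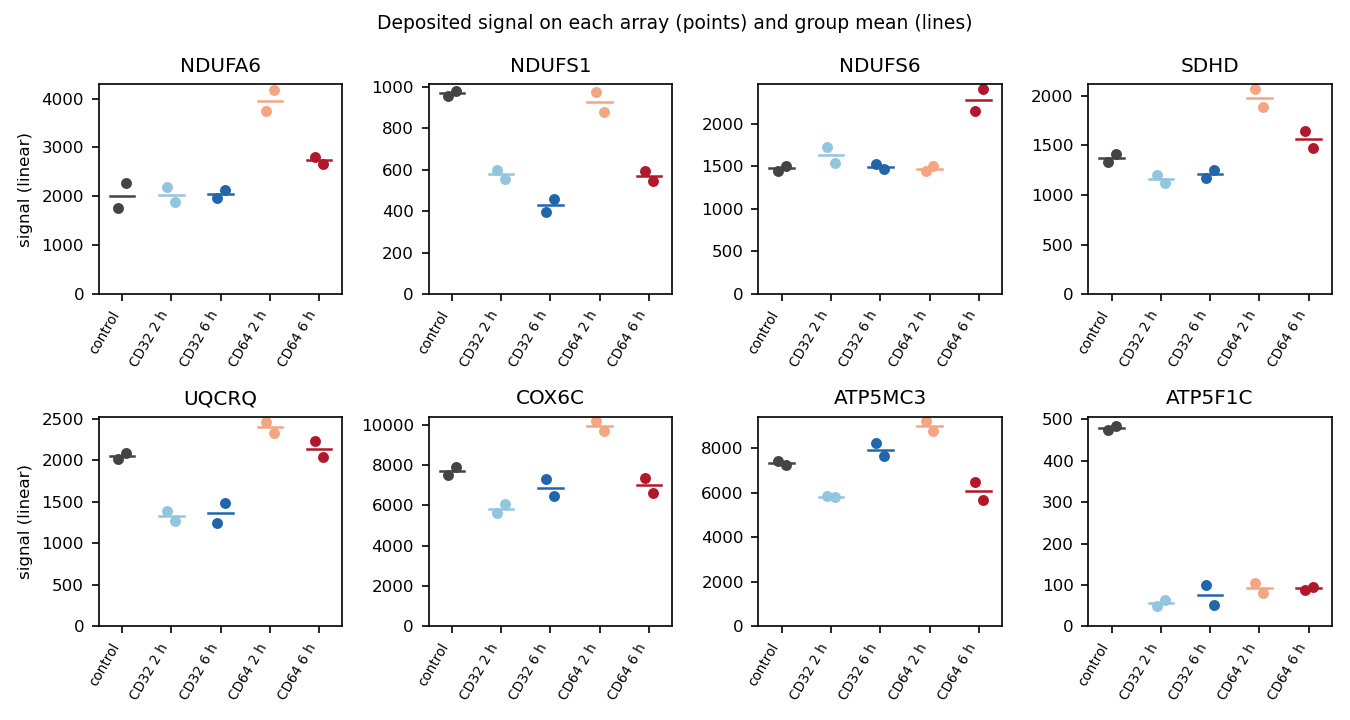
Deposited signal (y, linear from 0) of 8 members on each array (points) with the mean of the 2 arrays of a group (lines). The CD32 points of UQCRQ and NDUFS1 lie below their control points, the CD64 2 h points of NDUFA6, SDHD and COX6C lie above all other points, only the CD64 6 h points of NDUFS6 are high, and all 8 cross-linked points of ATP5F1C, between 50.2 and 103.6, lie below its control points of 475.3 and 484.7.

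Genes that feed the chain were given from a list of 22 citric acid cycle and pyruvate dehydrogenase genes, of which 16 were tested. After CD32 4 of them fell at 2 h and 7 at 6 h, and 0 rose. After CD64 3 fell at 2 h, and at 6 h 4 fell and 1 (DLD) rose. Over all probe sets the shares lower were 6.6% and 10.3% after CD32 and 8.24% and 9.94% after CD64. Among probe sets as bright as the members they were 15.2%, 22.1%, 17.3% and 20.6%. The list itself was not matched for signal, and its counts are too small to set it apart from these shares. IDH3G, a subunit of NAD-dependent isocitrate dehydrogenase, fell in all 4 comparisons, least after CD64 at 6 h (-0.68 ± 0.13). PDK1, which switches pyruvate dehydrogenase off, fell in all 4 too, by 0.40 ± 0.11, 0.49 ± 0.11, 0.64 ± 0.11 and 0.74 ± 0.11. PDHB, a subunit of pyruvate dehydrogenase itself, fell after CD32 (-0.64 ± 0.16 and -0.88 ± 0.16), and was higher after CD64 than after CD32 at 2 h (0.55 ± 0.16) and 6 h (0.77 ± 0.16). Between the receptors at 2 h 1 of the 16 was higher and 0 lower, with a median of -0.12. Over all probe sets 6.86% were higher and 9.43% lower there, with a median of -0.11, so the list read like the background.

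Among 15 tested genes of electron carriers and assembly factors, CYCS, cytochrome c, rose by 0.46 ± 0.10 and 0.64 ± 0.10 after CD32 and 0.39 ± 0.10 after CD64 at 2 h. COX15, which makes heme A for complex IV, fell by 0.92 ± 0.14 after CD32 at 6 h and by 0.54 ± 0.14 after CD64 at 2 h. ETFA, which brings electrons from fatty acid oxidation, was higher after CD64 than after CD32 at 2 h by 0.55 ± 0.10. In that comparison 1 of the 15 was higher and 0 lower, with a median of 0.03, near the 6.86% higher over all probe sets. Of 5 tested genes that exchange ATP and phosphate 0 were called against control in limma, where 6.6% to 10.7% of all probe sets were called each way. The phosphate carrier SLC25A3 (-0.38 ± 0.09) and the ADP/ATP carrier SLC25A5 (-0.79 ± 0.18) were lower after CD64 than after CD32 at 6 h. These 2 were not set against probe sets of like signal, and the brightest of the 25 bins of all probe sets had a median of -0.388 there.

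Of 10 tested regulators of mitochondrial biogenesis MYC, a transcription factor of growth, fell in all 4 comparisons with control, with log2 changes of -2.06 ± 0.14 and -2.51 ± 0.14 after CD32 and -0.62 ± 0.14 and -1.60 ± 0.14 after CD64. It was higher after CD64 than after CD32 by 1.44 ± 0.14 at 2 h and 0.90 ± 0.14 at 6 h. YY1 rose after CD64 at 2 h by 0.72 ± 0.11 (adjusted p = 0.00113) and was then 0.75 ± 0.11 above CD32. PPARGC1A, a coactivator of mitochondrial biogenesis, was lower after CD64 than after CD32 at 2 h (-1.85 ± 0.54, adjusted p = 0.0389) and not at 6 h (1.26 ± 0.54, adjusted p = 0.145), with a called interaction of 3.12 ± 0.76. GABPB1, the beta subunit of GABP, and TFAM, which packs and transcribes mitochondrial DNA, were higher after CD64 than after CD32 at 6 h, by 0.97 ± 0.23 and 0.95 ± 0.26. Of 6 tested genes of superoxide handling and uncoupling, UCP2, an uncoupling protein of the inner membrane, fell after CD64 by 1.25 ± 0.14 at 2 h and 1.63 ± 0.14 at 6 h and was lower than after CD32 at both times (-1.11 ± 0.14 and -1.24 ± 0.14). PRDX3, the mitochondrial peroxiredoxin, rose after CD64 at 2 h by 0.52 ± 0.09 and was lower than control at 6 h (-0.30 ± 0.09). TXN2, mitochondrial thioredoxin, fell after CD32 by 0.55 ± 0.13 and 0.86 ± 0.13 and after CD64 at 6 h by 0.42 ± 0.13 (adjusted p = 0.046). For the genes of all the lists other than the members, calls were not followed under quantile or cyclic loess normalization. Falls after CD64 at 6 h may depend on the scaling there too.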

How the data were processed

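RNA of U937 cells was profiled on 10 1-colour oligonucleotide arrays with 8793 probe sets, 47 of them controls. The deposited values are linear signal intensity, 1 per probe set and array, which the authors had scaled: the mean without the lowest and highest 2% was 500.5 to 500.6 on every array. Which software and steps made them is not given in the sources used here, and precision is limited by the number of arrays.

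Symbols came from the platform annotation: of 8746 probe sets that are not controls 7846 had 1 symbol, 388 several and 512 none, and all 62 members matched a RefSeq gene. Before log2, lower values were raised to a floor of 37.5 (the 25th percentile over the whole table). Probe sets over that floor on 2 arrays or more, 7708 in number, were tested with limma 3.58.1 in R 4.3.3 (1 term per group, eBayes with a variance trend, 5 residual degrees of freedom and a prior of 5.65). Tests were two-sided, with Benjamini-Hochberg adjustment over all probe sets tested and a threshold of 0.05. Errors are limma standard errors of log2 differences. Over the 4 comparisons with control together, the F-test called 46 of 61 members (75.4%) and 34.5% of all probe sets. The steps were tested on simulated data.

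The members and gene lists were chosen with earlier results of these data known, and no list was tested against other genes. Named with the value of every array were the 4 members of each complex with the smallest F-test p, and, of the members called in a comparison, the 3 at each end of the range of changes. Genes of the other lists were named after their values were seen, and their calls were not followed under the alternatives. Alternatives were quantile and cyclic loess normalization, no filter, a floor at the 10th percentile, no variance trend, only the groups compared, and leaving out each array.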

Additional observations from a re-analysis of the deposited data

Results flagged for a closer look

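The members named with the value of every array were listed for a second look where the 2 receptors differed under limma. The difference between CD64 and CD32, or the change of that difference with time, passed the test with the deposited scaling. At 2 h the log2 difference (CD64 minus CD32) in complex I was 0.77 for NDUFA5, 0.96 for NDUFA6, 0.78 for NDUFB5, 0.64 for NDUFB8 and 0.68 for NDUFS1. It was 0.77 for both SDHC and SDHD of complex II. In complex III it was 0.45 for UQCR11, 0.50 for UQCRC2 and 0.85 for UQCRQ, and in complex IV 0.32 for COX4I1, 0.40 for COX5B, 0.77 for COX6C and 0.80 for COX7A2. In ATP synthase it was 0.48 for ATP5F1A, 0.56 for ATP5F1E, 0.63 for ATP5MC3 and 0.68 for ATP5MG. All 18 of these were positive. UQCR11, UQCRC2, COX4I1, COX7A2 and ATP5F1E were called under neither quantile nor cyclic loess normalization. COX5B and ATP5F1A were not called under quantile normalization.

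At 6 h the difference was 0.81 for NDUFA10, 1.34 for NDUFA5, 0.41 for NDUFA6, 1.27 for NDUFB7, 0.39 for NDUFB8, 0.41 for NDUFS1 and 0.60 for NDUFS6. It was 0.37 for SDHD, 0.62 for UQCR11, 1.15 for UQCRB and 0.65 for UQCRQ, and 0.35 for COX4I1, -0.32 for COX5A and 0.42 for COX5B. In ATP synthase it was 0.90 for ATP5MG, and negative for ATP5F1A (-0.60), ATP5F1D (-0.44), ATP5F1E (-0.45) and ATP5MC3 (-0.38). The interaction of receptor and time was 0.75 for NDUFS6, and it was -0.53 for NDUFAB1, -0.46 for COX5A, -0.75 for COX6C, -1.09 for ATP5F1A, -1.01 for ATP5F1E and -1.01 for ATP5MC3. The 6 h differences of NDUFS1, COX5A, ATP5F1A, ATP5F1E and ATP5MC3 were called under neither other scaling, and that of SDHD not under cyclic loess. Neither were the interactions of NDUFAB1 (-0.01 and -0.06), COX5A (-0.18 and -0.06), COX6C (-0.12 and -0.23), ATP5F1E and ATP5MC3. The interaction of ATP5F1A was not called under quantile normalization.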

How the results depend on the processing

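With the floor at the 10th percentile (10.8) 104 of 107 calls of named members held, and with no filter 85 held and 22 were lost. Small moves of the 18 counts and medians of the members were not taken as changes. On that footing none changed with the lower floor. With no filter only the count of CD32 6 h against 2 h did, to 1. The mean over all probe sets of a gene was not run, since each member has 1 probe set. No paired analysis was possible because the labels number the control arrays only and share no replicate number between groups. In the order CD32 at 2 h and 6 h against control, CD64 at 2 h and 6 h against control, CD64 against CD32 at 2 h and 6 h, 6 h against 2 h for CD32 and for CD64, and the interaction, the main counts were 17, 24, 13, 15, 30, 26, 2, 17 and 10. With no variance trend they were 5, 10, 4, 6, 13, 9, 0, 5 and 2. With only the groups compared the first 8 were 4, 1, 0, 4, 6, 3, 0 and 0, where fewer arrays set the spread, and the interaction uses the same 4 groups. Quantile normalization gave 0, 7 and 3 calls for the last 3 comparisons and cyclic loess 0, 6 and 4, and the cause was not tested. The member medians moved under quantile normalization to -0.25 (CD32 at 6 h), 0.12 and 0.05 (CD64 at 2 h and 6 h), 0.35 and 0.32 (between the receptors at 2 h and 6 h), -0.06 and -0.05 (6 h against 2 h for CD32 and CD64) and -0.03 (interaction). Under cyclic loess they moved to 0.12 and 0.07 for CD64, 0.37 and 0.30 between the receptors, -0.01 for CD64 with time and -0.06 for the interaction. Of 107 calls of named members 2 changed sign, both under quantile normalization: ATP5MC3 between the receptors at 6 h (0.02) and NDUFAB1 at 6 h against 2 h after CD64 (0.00, on the other side of 0 before rounding). Leaving out 1 array, with the lone array assumed to vary like the other groups, gave counts of 8 to 16, 13 to 22, 7 to 15, 10 to 16, 15 to 28, 10 to 24, 0 to 1, 6 to 17 and 6 to 12 in the same order. The medians then ran from -0.29 to -0.20, -0.30 to -0.14, 0.09 to 0.19, -0.07 to 0.00, 0.37 to 0.44, 0.20 to 0.25, -0.03 to -0.01, -0.16 to -0.14 and -0.25 to -0.19. Of the 107 calls 11 held under every alternative that kept all arrays, and 45 held whichever array was left out. Members near the floor are limited by signal, COX7A1 altogether.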
